A study of Mus musculus with 6 samples.

Results

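The expression of 38 macrophage and monocyte genes was described in mammary tumours with and without serglycin. The genes were taken from a list of lineage regulators, surface receptors, Fc receptors, scavenger receptors, lysosomal proteins and activation markers of mononuclear phagocytes. A gene counted as measured when a probe set carried its symbol alone, and of several such probe sets the brightest on average was used. All 38 listed genes were measured, each by 1 probe set, among 22180 genes in all. The tumours came from 3 mice without serglycin (PyMT+ SG-/-) and 3 heterozygous mice (PyMT+ SG+/-). Every mouse carried PyMT, the polyoma virus middle T antigen, which drives mammary tumours, and both groups lacked at least 1 intact serglycin allele, so no wild-type serglycin level was measured. The sources used here do not give the promoter of the transgene, the strain, the age of the mice or the number of tumours behind each RNA sample. Serglycin is the proteoglycan of secretory granules in blood cells, macrophages included, and the study looked for genes under its influence that bear on metastasis. Values are log2 levels of tumour RNA on 1 array per mouse, whose sample is called a tumour below, and every difference is SG-/- minus SG+/- on that scale.

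Macrophages of tumours arise from blood monocytes and from cells already resident in the tissue. Their survival depends on the receptor for colony stimulating factor 1, and their identity on the transcription factor PU.1. In PyMT mammary tumours they are abundant and are known to help tumour cells enter blood vessels. In RNA of a whole tumour, more macrophages and more RNA of a gene per macrophage cannot be told apart.

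The arrays differed in ways that do not follow genotype. The mean of 1394 olfactory and vomeronasal receptor genes, taken here as silent in this tissue and so as the floor of an array, was 4.57, 5.13 and 5.86 in SG-/- replicates 1 to 3, against 4.58, 5.62 and 5.49 for the SG+/- arrays in the same order. SG-/- replicate 3 stood apart, with the highest floor, the narrowest interquartile range over all probe sets (2.56, against 2.85 to 3.15 on the other arrays) and the lowest level of 48.7% of genes above the dim level, the 40th percentile of probe set means at 6.09. Serglycin itself (Srgn) was at 5.07, 5.04 and 4.89 in SG-/- tumours and at 6.76, 6.43 and 6.35 in SG+/- tumours, with the smallest limma p of all genes and an adjusted p of 0.467. The series' design text describes nearly all altered genes as lower in SG-/- tumours. In the deposited values, 317 genes were higher and 152 lower at an unadjusted limma p under 0.05. Counted by lack of overlap between genotypes, 630 genes were higher and 708 lower, so the balance depends on the measure. Srgn was lower in SG-/- tumours, as the labels require.

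Of the 38 genes, 36 were higher in SG-/- tumours and 2, Arg1 and Chil3, were lower, while 46.3% of all genes were higher. The median difference was 0.34 over the 38 genes and -0.01 over all 22180 genes. The medians of the 7 role groups ran from 0.10 to 0.41, and from 0.07 to 0.19 without SG-/- replicate 1. No gene of the list passed limma with Benjamini-Hochberg adjustment over all genes (0 of 38 at an adjusted p of 0.05, smallest adjusted p 0.9999), nor did any other gene (0.0% of 22180), and 2.11% of all genes had an unadjusted p under 0.05. At an unadjusted p under 0.05, 8 of the 38 genes were higher in SG-/- tumours, against 1.43% of all genes, and 0 were lower, against 0.685%. These 8 were Adgre1, Ly6c2, Plac8, Fcgr1, Tyrobp, Clec7a, Ctss and Cybb. In 12 genes every SG-/- tumour lay above every SG+/- tumour, against 2.84% of all genes, and in 0 the reverse held, against 3.19%. Leaving out SG-/- replicate 1 brought the median difference to 0.13 and the genes higher to 31, against 46.8% of all genes, and left 3 genes at an unadjusted p under 0.05, against 0.906%. Leaving out SG-/- replicate 3 gave a median of 0.49, 35 genes higher, against 47.5%, and 17 genes at that p, against 3.91%, and in 24 genes, against 12.5%, both remaining SG-/- tumours then lay above every SG+/- tumour. Of the other single tumours, leaving out SG-/- replicate 2 left 4 genes at that p, against 1.47%, SG+/- replicate 2 left 3, against 1.03%, and SG+/- replicate 3 left 2, against 0.852%.

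**Figure D1:**
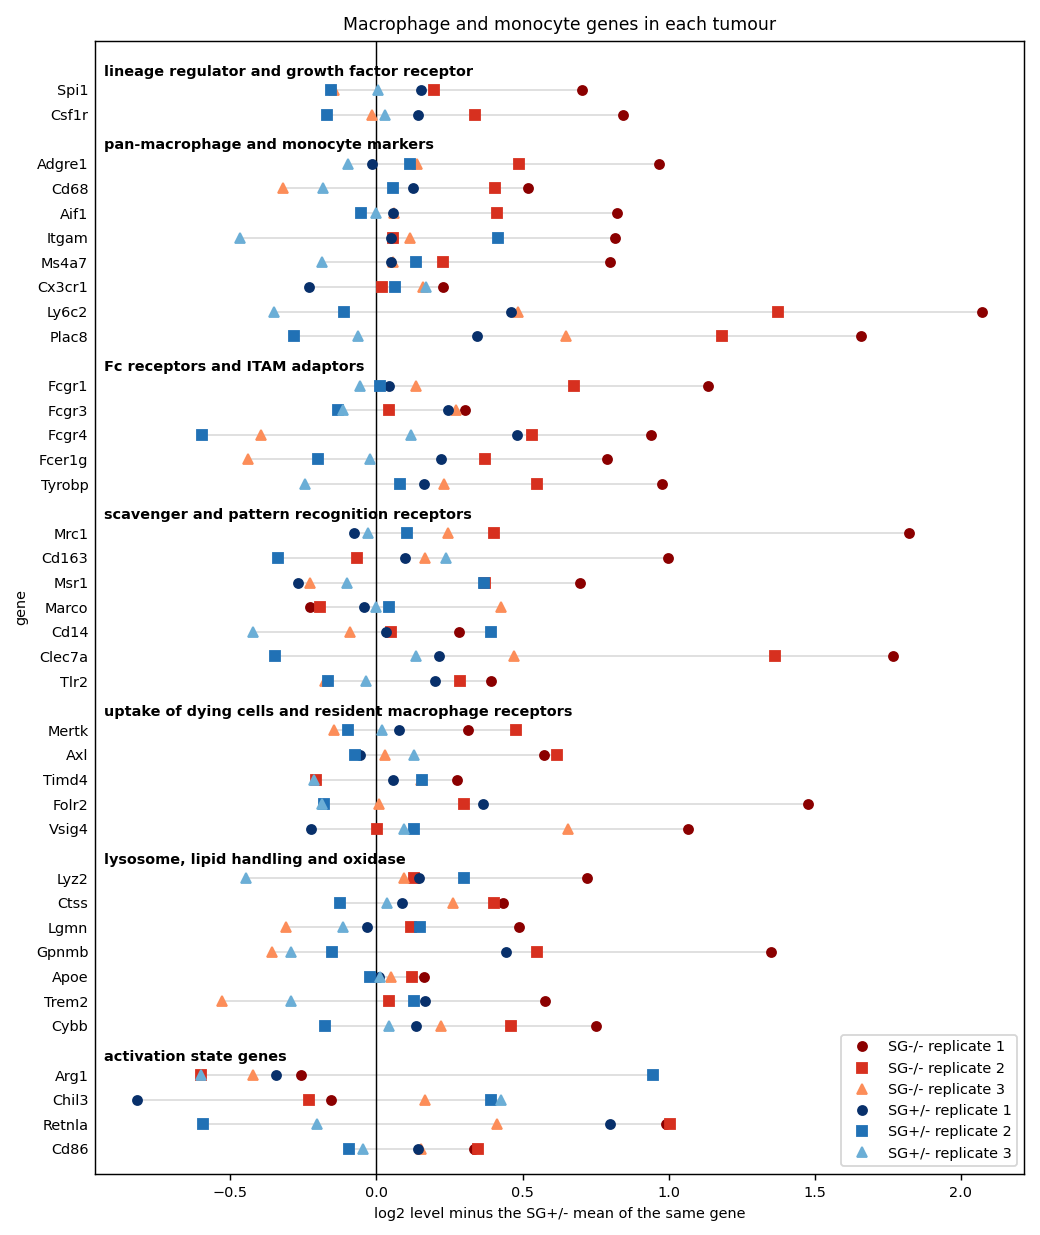
Log2 level of each of the 38 genes in each tumour, minus the mean of the 3 SG+/- tumours for that gene (horizontal axis), by role. Dark red circles, SG-/- replicate 1, stand farthest to the right in 30 of the 38 genes.

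Most of the 38 genes were highest in the same tumour. SG-/- replicate 1 had the highest level of 30 of the 38 genes, or 78.9%, whereas it was highest in 25.6% of all genes above the dim level. The order SG-/- replicate 1, then 2, then 3 held in 25 of 38 genes, against 28.5% of all genes, dim genes included. Its share was not taken among genes above the dim level, in which SG-/- replicate 3 was lowest in 48.7%. Among the exceptions, Marco was highest in SG-/- replicate 3, Arg1 and Cd14 in SG+/- replicate 2 and Chil3 in SG+/- replicate 3. Relative to the SG+/- mean, the median over the 38 genes was 0.74, 0.34 and 0.10 for the SG-/- tumours in order of replicate, against 0.09, -0.04 and -0.05 for the SG+/- tumours. The first and second SG-/- replicates thus stood above the SG+/- tumours, and SG-/- replicate 3 lay at the level of SG+/- replicate 1. Levels spread more among SG-/- tumours than among SG+/- tumours in 28 of 38 genes. The median range was 0.76 among SG-/- tumours and 0.37 among SG+/- tumours. The share over all genes was not taken. The receptor mean also spread more among SG-/- arrays, from 4.57 to 5.86, against 4.58 to 5.62. Whether the wider spread is particular to the 38 genes was not tested.

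Single tumours were also set side by side, with no replicate behind any pair. SG-/- replicate 1 was higher in 37, 34 and 36 of the 38 genes than SG+/- replicates 1, 2 and 3, against 50.5%, 52.9% and 52.8% of all genes. Among genes above the dim level the shares were 52.0%, 61.0% and 64.2%. SG-/- replicate 2 was higher in 30, 27 and 33 of the 38 genes, against 47.6%, 47.2% and 47.6% of all genes. The shares above the dim level were 44.8%, 54.5% and 58.4%. SG-/- replicate 3, with the highest receptor mean, was higher than each SG+/- tumour in 23 of the 38 genes, with median differences from 0.03 to 0.19. For this tumour the shares were 44.7% to 48.5% of all genes and 27.3% to 35.6% of genes above the dim level. SG-/- replicate 1 and SG+/- replicate 1, the pair closest in receptor mean (4.57 and 4.58), had a median difference of 0.60. The next closest pair, SG-/- replicate 3 and SG+/- replicate 2 (5.86 and 5.62), had a median difference of 0.10. With the receptor mean as a covariate in the fit, 36 of the 38 genes were higher, the median difference was 0.32, and 16 had an unadjusted p under 0.05 and were higher, against 2.88% of all genes. The part of the array floor in the differences of the 38 genes was not tested.

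**Figure D2:**
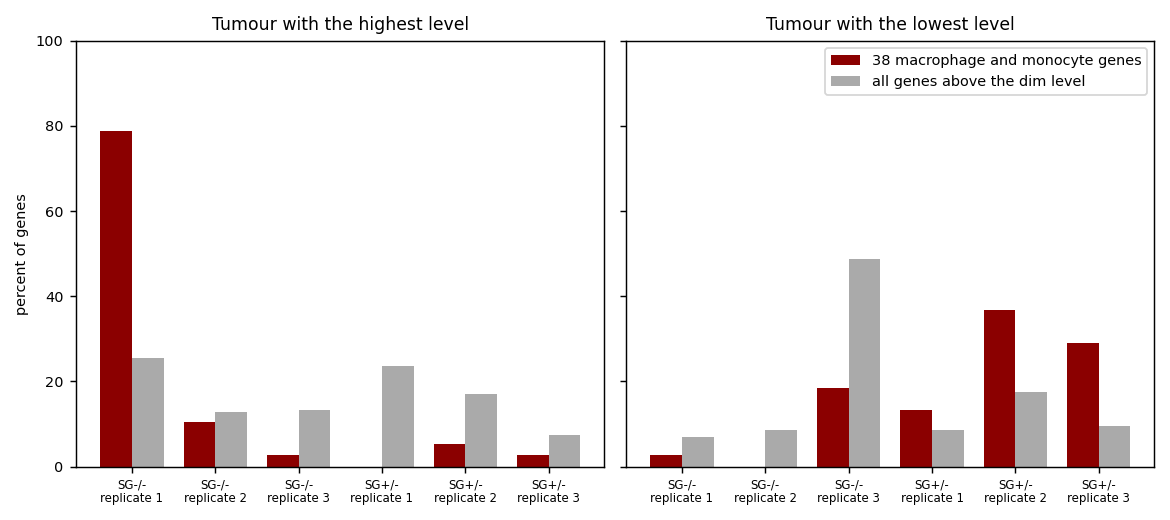
Percent of genes (vertical axis) for which each tumour had the highest level (left) or the lowest level (right), for the 38 genes in red and for all genes above the dim level in grey. SG-/- replicate 1 was highest in 78.9% of the 38 genes, and SG+/- replicates 2 and 3 were lowest in 36.8% and 28.9%.

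**Figure D3:**
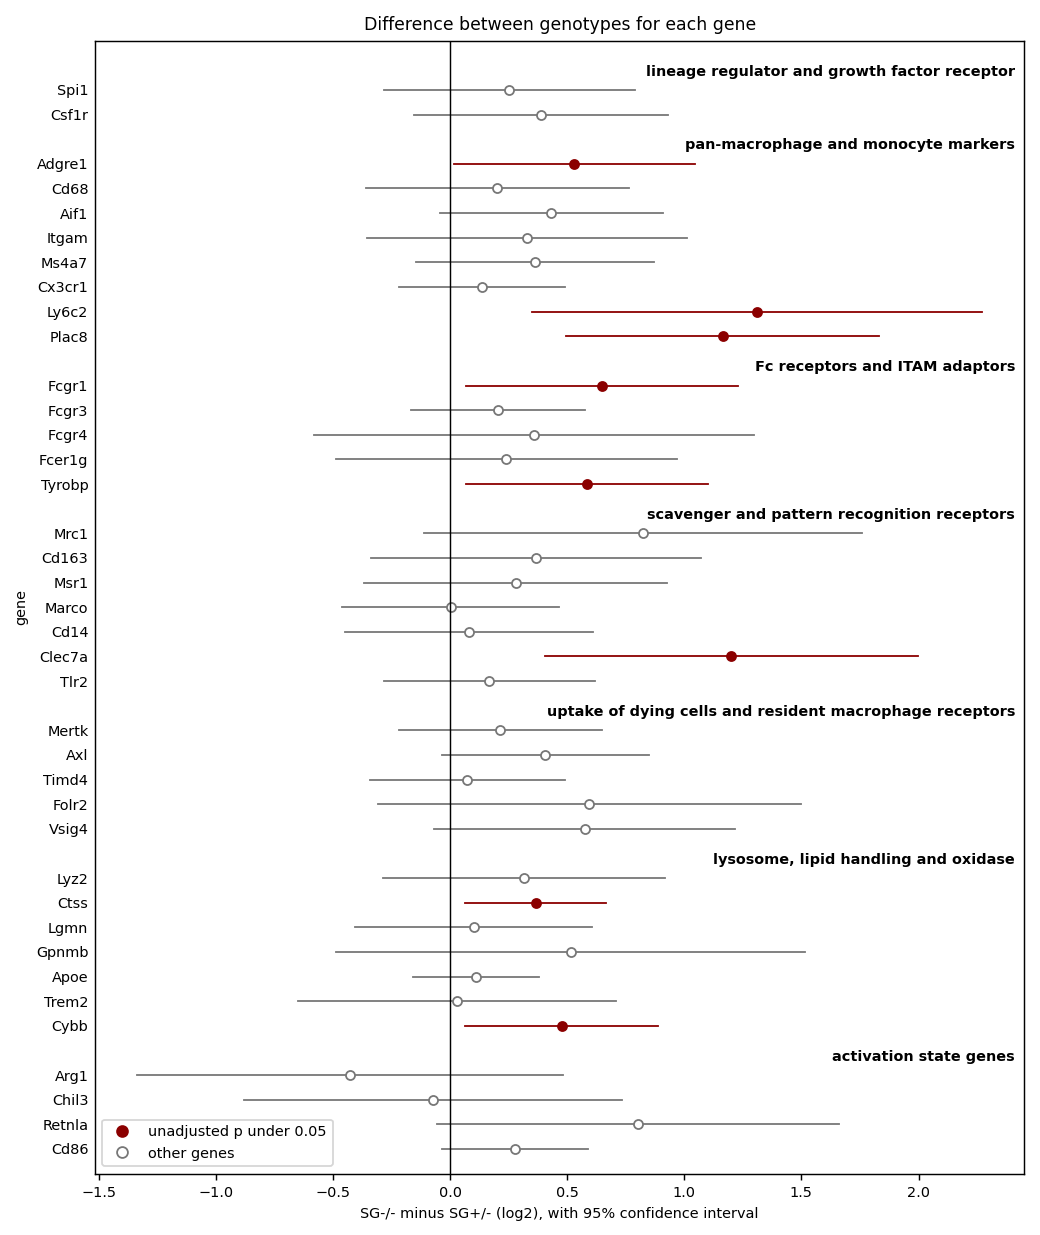
Difference SG-/- minus SG+/- on the log2 scale (horizontal axis) with the 95% confidence interval from limma, for each gene by role. Filled red points mark the 8 genes with an unadjusted p under 0.05, all to the right of 0.

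The lineage regulator and the growth factor receptor were both higher in SG-/- tumours by less than the spread between tumours. Csf1r encodes the receptor for colony stimulating factor 1 and interleukin 34. It was at 9.68, 9.18 and 8.82 in SG-/- tumours, against 8.98, 8.67 and 8.87 in SG+/- tumours. SG-/- replicates 1 and 2 were above all SG+/- tumours and replicate 3 was among them. Its difference of 0.39 (standard error 0.23) was 0.16 without SG-/- replicate 1. Spi1 encodes PU.1, the transcription factor that macrophages and other myeloid cells need. It was at 8.20, 7.69 and 7.35 in SG-/- tumours, against 7.65, 7.33 and 7.50 in SG+/- tumours, and the groups overlapped. The Spi1 difference was 0.25 (standard error 0.23), and without SG-/- replicate 1 it was 0.03.

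All 8 pan-macrophage and monocyte markers had a higher mean without serglycin, by a median of 0.40. Of them 4 were higher without overlap between genotypes, against 2.84% of all genes. The monocyte genes Ly6c2 and Plac8 had differences over 1. Ly6c2, which encodes the surface antigen that marks newly recruited inflammatory monocytes of the mouse, was at 8.05, 7.35 and 6.46 in SG-/- tumours, against 6.43, 5.86 and 5.62 in SG+/- tumours. The groups did not overlap, though only 0.03 separated SG-/- replicate 3 from SG+/- replicate 1. The difference was 1.31 (standard error 0.41, 95% confidence interval from 0.35 to 2.27), or 2.48-fold, and without SG-/- replicate 1 it was 0.93. Its relative Ly6c1, which endothelial cells also express, lay under the dim level and was 0.38 higher, and whether the probes separate these near-identical genes was not tested. Plac8, a cysteine-rich protein gene of monocytes and other leukocytes, was at 7.67, 7.19 and 6.65 in SG-/- tumours, against 6.35, 5.72 and 5.94 in SG+/- tumours. Every SG-/- tumour was higher than every SG+/- tumour, by at least 0.30. Its difference was 1.16 (standard error 0.28, interval from 0.49 to 1.83), or 2.24-fold, which gave Plac8 rank 43 by p among all genes and the smallest p of the 38. Both genes kept an unadjusted limma p under 0.05 without SG-/- replicate 1 (0.0317 for Ly6c2 and 0.0102 for Plac8). For Ly6c2 it was 0.0512 without SG+/- replicate 3.

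Adgre1, which encodes F4/80, the classical surface marker of mouse macrophages, was at 9.32, 8.84 and 8.49 in SG-/- tumours, against 8.34, 8.46 and 8.25 in SG+/- tumours. SG-/- replicates 1 and 2 stood clear of the rest, and replicate 3 was 0.02 above the highest SG+/- tumour. The difference was 0.53 (standard error 0.22). Aif1 encodes the calcium-binding protein IBA1 of macrophages. It was at 7.87, 7.46 and 7.11 in SG-/- tumours, against 7.10, 6.99 and 7.04 in SG+/- tumours, and differed by 0.43 (standard error 0.20). Leaving out SG-/- replicate 1 brought the Adgre1 difference to 0.31 and that of Aif1 to 0.24. The other 4 markers overlapped between genotypes. Ms4a7, a membrane protein gene of macrophages, was 0.36 higher, and Itgam, the CD11b integrin chain shared with neutrophils, was 0.33 higher. Cd68, a lysosomal glycoprotein, was 0.20 higher, and Cx3cr1, the fractalkine receptor of patrolling monocytes and some resident macrophages, 0.14.

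**Figure D4:**
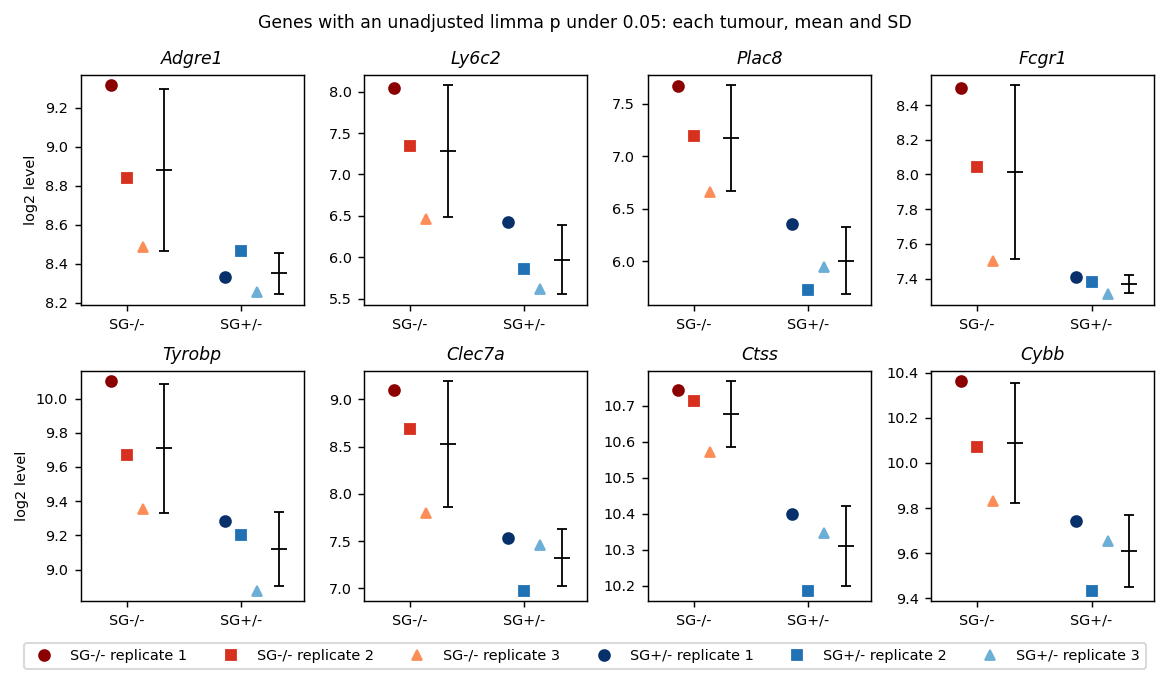
Log2 level (vertical axis, a separate scale for each gene, not starting at 0) of the 8 genes with an unadjusted limma p under 0.05, with each tumour as a point and the mean and SD of 3 tumours as a bar. In all 8, SG-/- replicate 1 was highest and SG-/- replicate 3 lay nearest to the SG+/- tumours.

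Since PU.1 is the lineage factor of these cells, the RefSeq promoter windows, 250 bases before to 50 after a gene's start on GRCm38.p6, were read for a PU.1 core, spelled AGGAAGT, on both strands. Windows of 30 of the 38 genes were searched, and the rest of the list was not. The letters were held by 10.7% of all genes with a window (9.35% of windows), a set not matched to the 30 genes. Of the 30 genes, 9, or 30%, held them. These were Chil3, Ctss, Fcgr1, Fcgr4, Folr2, Ly6c2, Lyz2, Mrc1 and Retnla. Of the 8 genes with an unadjusted p under 0.05, 6 had a window and 3 held the core. Their windows are shown 5′ to 3′ on the strand of the gene, with the core, on either strand, in capitals. The Ly6c2 window lies at chr15:75111922-75112221 (minus strand), with the core at bases 144 and 278 of the window, and its second, overlapping window held the same 2 copies. The Fcgr1 window lies at chr3:96293920-96294219 (minus strand), with the core on the opposite strand at base 190. The Ctss window lies at chr3:95526536-95526835 (plus strand), with the core on the opposite strand at base 249.
Ly6c2: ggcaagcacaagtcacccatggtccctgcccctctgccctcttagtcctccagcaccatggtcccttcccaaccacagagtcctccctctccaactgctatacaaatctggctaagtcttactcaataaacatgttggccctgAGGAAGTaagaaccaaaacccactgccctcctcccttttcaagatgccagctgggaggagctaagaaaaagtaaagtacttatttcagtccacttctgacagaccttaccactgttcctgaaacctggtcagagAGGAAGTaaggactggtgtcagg
Fcgr1: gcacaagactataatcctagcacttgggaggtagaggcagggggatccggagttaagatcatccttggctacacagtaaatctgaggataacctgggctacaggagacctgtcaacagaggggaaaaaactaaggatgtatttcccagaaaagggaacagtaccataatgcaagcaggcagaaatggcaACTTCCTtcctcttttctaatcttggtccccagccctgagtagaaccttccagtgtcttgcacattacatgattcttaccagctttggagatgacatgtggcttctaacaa
Ctss: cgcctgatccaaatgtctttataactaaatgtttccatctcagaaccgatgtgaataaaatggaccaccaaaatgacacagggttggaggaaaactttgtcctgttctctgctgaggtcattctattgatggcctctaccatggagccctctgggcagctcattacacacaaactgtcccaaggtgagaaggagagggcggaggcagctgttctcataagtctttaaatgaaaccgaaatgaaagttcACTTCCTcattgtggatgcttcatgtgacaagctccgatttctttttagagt
A match of letters is not a measured binding site, and whether PU.1 or another factor binds these letters was not tested.

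The 5 Fc receptor and adaptor genes all had a higher mean without serglycin, by a median of 0.36, and the high-affinity receptor and the adaptor Tyrobp did not overlap between genotypes. Fcgr1, whose window is shown above, encodes the high-affinity receptor for IgG and is induced by interferons. It was at 8.50, 8.04 and 7.50 in SG-/- tumours, against 7.41, 7.38 and 7.31 in SG+/- tumours. The SG+/- tumours were close to each other, and the SG-/- tumours spread upward from them. The difference was 0.65 (standard error 0.25, interval from 0.07 to 1.23), or 1.57-fold, and without SG-/- replicate 1 it was 0.41. Tyrobp encodes DAP12, the adaptor through which TREM2 and other receptors signal by tyrosine motifs. It was at 10.10, 9.67 and 9.35 in SG-/- tumours, against 9.29, 9.20 and 8.88 in SG+/- tumours, and differed by 0.59 (standard error 0.22). Natural killer cells express Tyrobp too, and without SG-/- replicate 1 its difference was 0.39.

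The remaining Fc genes overlapped between genotypes. Fcer1g, the common gamma chain through which Fcgr1, Fcgr3 and Fcgr4 signal, was at 10.04, 9.62 and 8.81 in SG-/- tumours, against 9.47, 9.05 and 9.23 in SG+/- tumours. SG-/- replicate 3 was the lowest of all 6, the difference was 0.24 (standard error 0.31), and without SG-/- replicate 1 it was -0.03. Fcgr3, a low-affinity IgG receptor, was at 7.46, 7.20 and 7.43 in SG-/- tumours, against 7.40, 7.03 and 7.04 in SG+/- tumours, a difference of 0.21 (standard error 0.16). Fcgr4, an activating IgG receptor of monocytes and macrophages, varied most of the 5 within each genotype. It was at 7.30, 6.89 and 5.96 in SG-/- tumours, against 6.84, 5.76 and 6.48 in SG+/- tumours, a difference of 0.36 (standard error 0.40). Fcgr1 and Fcer1g had their highest levels in SG-/- replicates 1 and 2, and differed in SG-/- replicate 3, the array that stood apart, where Fcgr1 was 0.09 above the highest SG+/- tumour and Fcer1g was below them all.

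The 7 scavenger and pattern recognition receptors each had an SG-/- mean at or above the SG+/- mean, with differences from 0.003 to 1.20 and a median of 0.28. Clec7a encodes dectin-1, the receptor for fungal beta-glucan on macrophages and dendritic cells. It was at 9.10, 8.69 and 7.79 in SG-/- tumours, against 7.54, 6.98 and 7.46 in SG+/- tumours. All SG-/- tumours were higher, by at least 0.26, and the difference was 1.20 (standard error 0.34, interval from 0.40 to 2.00), or 2.30-fold. It was 0.92 without SG-/- replicate 1, with an unadjusted limma p of 0.0230. Mrc1, the mannose receptor CD206, which is high in macrophages of the interleukin 4 type and in resident cells, was at 10.12, 8.70 and 8.54 in SG-/- tumours, against 8.23, 8.40 and 8.27 in SG+/- tumours. The groups did not overlap, but most of the difference of 0.82 (standard error 0.40) came from SG-/- replicate 1, without which it was 0.32. Cd163, the hemoglobin scavenger receptor, was likewise at 7.20 in SG-/- replicate 1 and at 6.14 and 6.37 in the other SG-/- tumours, against 6.30, 5.86 and 6.44 in SG+/- tumours. Without SG-/- replicate 1 the Cd163 difference was 0.05, against 0.37 over all tumours. Msr1, the class A scavenger receptor for modified lipoproteins, was at 8.18, 7.86 and 7.26 in SG-/- tumours, against 7.22, 7.86 and 7.38 in SG+/- tumours, and differed by 0.28 (standard error 0.27). Tlr2, the receptor for bacterial lipoproteins, was 0.17 higher, and Cd14, the lipopolysaccharide co-receptor, 0.08. Marco, a scavenger receptor of alveolar and splenic marginal zone macrophages, lay under the dim level on average and differed by 0.003.

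Receptors for dying cells and of resident macrophages were higher without serglycin in 5 of 5 cases, by a median of 0.41, and all 5 overlapped between genotypes. Axl, a receptor tyrosine kinase that binds phosphatidylserine through GAS6 and is also made by stromal and tumour cells, was at 9.64, 9.69 and 9.10 in SG-/- tumours, against 9.01, 9.00 and 9.20 in SG+/- tumours. Its close relative Mertk was at 9.02, 9.19 and 8.56 in SG-/- tumours, against 8.79, 8.61 and 8.73 in SG+/- tumours. Both were high in SG-/- replicates 1 and 2 and among or below SG+/- levels in SG-/- replicate 3, with differences of 0.41 for Axl (standard error 0.19) and 0.22 for Mertk (standard error 0.18). Folr2, the folate receptor beta of resident macrophages, was at 9.46, 8.28 and 7.99 in SG-/- tumours, against 8.35, 7.80 and 7.79 in SG+/- tumours. Its difference of 0.59 (standard error 0.38) was 0.15 without SG-/- replicate 1. Vsig4, the complement receptor CRIg, was at 6.51, 5.44 and 6.10 in SG-/- tumours, against 5.22, 5.57 and 5.54 in SG+/- tumours. Timd4, a phosphatidylserine receptor of long-lived resident macrophages, was at 6.14, 5.66 and 6.02 in SG-/- tumours, against 5.92, 6.02 and 5.65 in SG+/- tumours. Vsig4 differed by 0.57, or by 0.33 without SG-/- replicate 1, and Timd4 by 0.07, and both lay under the dim level on average.

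Lysosomal, lipid-handling and oxidase genes were higher in 7 of 7 cases, with a median difference of 0.31, and Ctss, Cybb and Apoe did not overlap between genotypes. Ctss encodes cathepsin S, which cleaves the invariant chain for antigen presentation, and its window is shown above. It was at 10.74, 10.71 and 10.57 in SG-/- tumours, against 10.40, 10.19 and 10.35 in SG+/- tumours. The groups did not overlap, the difference was 0.36 (standard error 0.13), or 1.29-fold, and it was still 0.33 without SG-/- replicate 1. Cybb, the gp91phox subunit of the phagocyte NADPH oxidase, was at 10.36, 10.07 and 9.83 in SG-/- tumours, against 9.74, 9.43 and 9.65 in SG+/- tumours. It differed by 0.48 (standard error 0.17), with all SG-/- tumours higher, and by 0.34 without SG-/- replicate 1. Lyz2, lysozyme M, was at 11.46, 10.87 and 10.84 in SG-/- tumours, against 10.89, 11.04 and 10.30 in SG+/- tumours, and differed by 0.31 (standard error 0.26).

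Gpnmb and Trem2, which lipid-laden macrophages express, overlapped between genotypes. Gpnmb, a lysosomal glycoprotein gene, was at 8.65, 7.85 and 6.94 in SG-/- tumours, against 7.74, 7.15 and 7.00 in SG+/- tumours. It was both highest and lowest in SG-/- tumours, and its difference of 0.51 (standard error 0.42) was 0.10 without SG-/- replicate 1. Trem2, the lipid-sensing receptor that signals through Tyrobp, was 0.03 higher (standard error 0.29), from 7.56 to 8.66 among SG-/- tumours and from 7.80 to 8.25 among SG+/- tumours. Without SG-/- replicate 1 it differed by -0.24. Apoe, the apolipoprotein E gene, did not overlap between genotypes but differed by only 0.11 (standard error 0.11), and Lgmn, the lysosomal protease legumain, by 0.10 (standard error 0.21).

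Genes of activation state differed in both directions, with a median of 0.10 that was -0.07 without SG+/- replicate 1. Arg1, the arginase of macrophages exposed to interleukin 4 or to hypoxia, was at 10.00, 9.66 and 9.84 in SG-/- tumours, against 9.92, 11.21 and 9.66 in SG+/- tumours. SG+/- replicate 2 was alone in its high level, and the difference of -0.43 (standard error 0.38) was 0.05 without that tumour. Chil3 (Ym1), a chitinase-like protein of the same type of macrophage, was at 6.30, 6.23 and 6.62 in SG-/- tumours, against 5.64, 6.85 and 6.88 in SG+/- tumours, a difference of -0.07 (standard error 0.34). Retnla (RELM-alpha), likewise induced by interleukin 4 in the mouse, was at 7.33, 7.35 and 6.75 in SG-/- tumours, against 7.14, 5.75 and 6.14 in SG+/- tumours. It differed by 0.80 (standard error 0.36), with SG+/- replicate 1 among the SG-/- tumours. These 3 genes, often read together, thus differed by -0.43, -0.07 and 0.80. Cd86, a co-stimulatory ligand for T cells, was at 6.77, 6.78 and 6.58 in SG-/- tumours, against 6.57, 6.34 and 6.39 in SG+/- tumours. The groups were separated by 0.01, and the difference was 0.28 (standard error 0.13).

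Other genes of macrophage biology that are not among the 38 gave smaller median differences over all 6 tumours. Without SG-/- replicate 1 the median of the 38 was 0.13, and some of these lists were above it. Surface and lysosomal genes were then at 0.16, resident macrophage genes at 0.14, inflammatory effectors at 0.23 and circulating monocyte genes at 0.19. Growth factors and cytokines stayed lower at 0.06, transcription factors at 0.03 and lipid-associated genes at 0.03. Of 9 growth factors and cytokines that act on macrophages, 6 were higher, with a median of 0.13, and 0 had an unadjusted limma p under 0.05. Without SG-/- replicate 3 the median was -0.01 and 4 were higher. Csf1, the ligand of Csf1r, was at 8.91, 8.74 and 8.03 in SG-/- tumours, against 8.44, 8.30 and 8.12 in SG+/- tumours, a difference of 0.28 (standard error 0.24). Of 10 measured transcription factors (of 12 listed) 6 were higher, with a median of 0.08, and Irf8, a factor of monocytes and dendritic cells that interferon gamma induces, was 0.44 higher with no overlap. Of 20 further surface and lysosomal genes 18 were higher, with a median of 0.17, and 2 were higher at an unadjusted limma p under 0.05, against 1.43% of all genes. Laptm5, a lysosomal membrane protein gene of leukocytes, was the first of these by p, 0.52 higher, and Mpeg1, which encodes perforin-2, was 0.28 higher.

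Resident macrophage genes were higher in 11 of 11 measured cases (12 listed), with a median of 0.22 (0.14 without SG-/- replicate 1 and 0.44 without SG-/- replicate 3), led by p by Mgl2, a galactose lectin gene (0.60). Inflammatory effectors were higher in 8 of 8, with a median of 0.28. Nos2, the inducible nitric oxide synthase, was 0.08 higher and Il1b, the interleukin 1 beta gene, 0.51. Circulating monocyte genes were higher in 7 of 8 measured (9 listed), with a median of 0.17 (0.32 without SG-/- replicate 2). Ccr2, the receptor that draws monocytes out of blood toward CCL2, was at 8.55, 7.45 and 7.68 in SG-/- tumours, against 7.00, 7.10 and 7.01 in SG+/- tumours. It did not overlap and differed by 0.86 (standard error 0.28), or by 0.53 without SG-/- replicate 1. Lipid-associated genes were higher in 5 of 9 measured (10 listed), with a median of 0.06 that was -0.0016 without SG+/- replicate 3, and Cd36, a fatty acid receptor also of endothelium and adipocytes, was 0.70 higher. In all 7 lists the limma adjusted p of every gene was 1.

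Markers of several other cells were also higher in SG-/- tumours. Pan-leukocyte genes, 7 of 7 higher, had medians of 0.75, 0.29 and 0.18 relative to the SG+/- mean for the SG-/- tumours in order of replicate, against 0.12, 0.01 and -0.15 for the SG+/- tumours. Their summed log2 level ran from 58.7 to 62.8 in SG-/- tumours and from 56.8 to 58.8 in SG+/- tumours. Ptprc, the pan-leukocyte antigen CD45, differed by 0.42. The median difference of the list was 0.42, and 0.26 without SG-/- replicate 1. Dendritic cell genes were higher in 7 of 7 with a median of 0.21 (0.13 without SG-/- replicate 3), and Flt3, a growth factor receptor of dendritic cells, differed by 0.23. T cell genes were higher in 9 of 9 with a median difference of 0.30, and 4 were higher at an unadjusted limma p under 0.05, against 1.43% of all genes. The summed level of the T cell genes ran from 57.4 to 59.8 in SG-/- tumours and from 55.4 to 56.4 in SG+/- tumours. Fibroblast genes were higher in 8 of 8 with a median of 0.59, and in 6 of 8 with a median of 0.24 without SG-/- replicate 1. Their summed level was 85.1 in SG-/- replicate 1, 76.6 and 78.2 in the other SG-/- tumours and from 73.1 to 76.7 in SG+/- tumours. Endothelial genes were higher in 7 of 7 with a median of 0.38. Their summed level ran from 55.4 to 58.6 in SG-/- tumours and from 53.5 to 55.0 in SG+/- tumours. Relative to the SG+/- mean, their medians were 0.66, 0.51 and 0.11 in SG-/- replicates 1 to 3, against 0.03, -0.12 and 0.09 in SG+/- tumours. The macrophage and pan-leukocyte genes had the same order of SG-/- tumours. Genes of salivary gland, a tissue next to the upper mammary glands, were higher in 6 of 7 with a median of 1.84 (1.06 without SG-/- replicate 3), at a summed level of 68.5, 53.9 and 66.9 in SG-/- replicates 1 to 3 and from 46.6 to 54.1 in SG+/- tumours. Their medians relative to the SG+/- mean were 2.39, -0.05 and 1.81 for the SG-/- tumours in that order. In SG-/- replicate 2 they went both ways: of 2 genes picked after their values were seen, Prol1 was at 10.86, against 5.46 to 7.74 in SG+/- tumours, and Dcpp1 at 6.46, against 9.08 to 9.69. The part of these cells in the values of the 38 genes was not tested.

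Further cell types had other patterns. Neutrophil genes were higher in 5 of 10, with a median difference of 0.03 (-0.11 without SG-/- replicate 3) and 7 of 10 under the dim level, and S100a8, a calcium-binding protein gene of neutrophils, averaged 5.92 ± 0.21 without serglycin, against 6.19 ± 0.33 in heterozygous tumours (SD, n = 3 each). B cell genes were at a median of 0.65 in SG-/- replicate 3, -0.14 in SG-/- replicate 2 and 0.01 in SG-/- replicate 1, an order unlike that of the macrophage genes, and 5 of 7 were under the dim level. Mast cell genes were all 7 under the dim level, and 6 were higher. Natural killer cell genes were higher in 2 of 5, with a median of -0.01 (0.09 without SG-/- replicate 1), and adipocyte genes in 5 of 5, with a median of 0.36. Tumour epithelium genes were higher in 6 of 9, with a median difference of 0.01. Of these 9, 1 was higher at an unadjusted limma p under 0.05, against 1.43% of all genes. This was Krt19, a keratin gene, which was 0.89 higher. Epcam, an epithelial adhesion molecule, averaged 12.11 ± 0.03 without serglycin, against 12.20 ± 0.06 in heterozygous tumours (SD, n = 3 each). All 9 epithelial genes were above the dim level, as were 35 of the 38 macrophage and monocyte genes, Csf1r, Adgre1 and Cd68 among them.

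**Figure D5:**
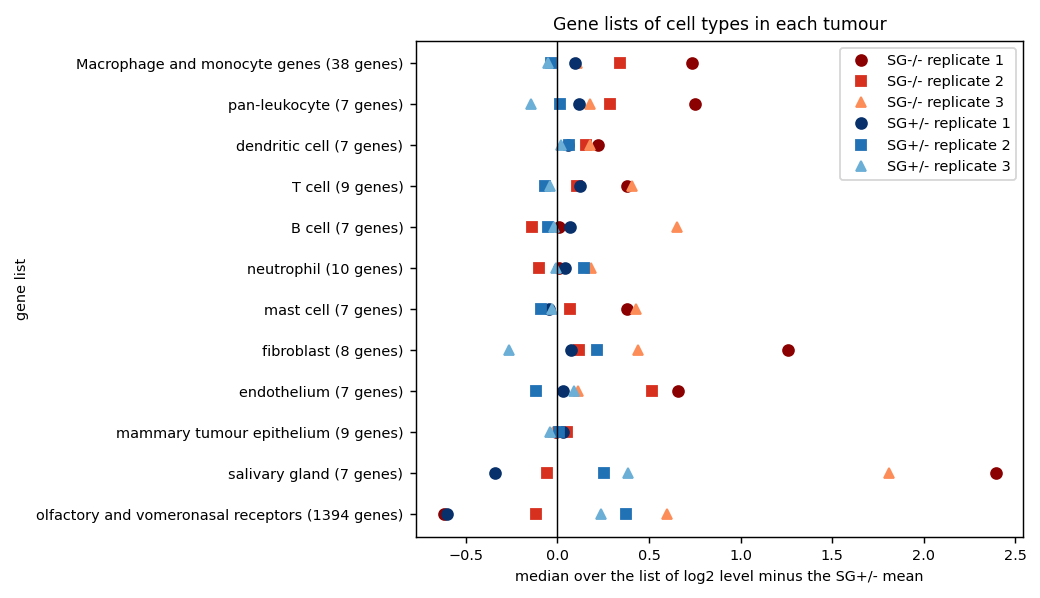
Median over each gene list of the log2 level minus the SG+/- mean (horizontal axis) in each tumour. The macrophage, pan-leukocyte and endothelial lists place SG-/- replicate 1 and then SG-/- replicate 2 highest. The epithelial list lies between -0.04 and 0.05, and the salivary list sets SG-/- replicates 1 and 3 apart.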

How the data were processed

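Whole-transcript Affymetrix arrays had been run on Trizol RNA of snap-frozen tumours, 1 array per mouse, per the labels' protocols. The deposited values are log2 expression levels per probe set that the authors made with the robust multi-array average, per the series design text. Affymetrix Expression Console and limma are named, without versions, in the submitters' processing notes. No column of values was left out.

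Of 33793 probe sets, 23521 had 1 gene symbol in the platform's annotation, 1814 had several and 8458 were not listed in it, and 22180 genes remained at 1 probe set each. Symbols were updated through the RefSeq annotation of GRCm38.p6. The linear model of limma 3.58.1 (R 4.3.3) with moderated variances gave SG-/- minus SG+/- for each gene with a two-sided p. Adjusted p-values are Benjamini-Hochberg values over the 22180 genes, at a threshold of 0.05. The p-values set each difference against the spread among arrays of the same genotype, moderated over all genes. With 1 array per mouse, spread between mice and spread between arrays cannot be told apart, and 3 arrays per genotype limit the precision. The 38 genes, their roles and the other lists were chosen with earlier results of these data known. Values per tumour are given for the first gene of each role group and the 3 others with the smallest p, or all genes of groups of up to 5. Counts and medians of lists are descriptions without a test. Promoter windows came from RefSeq (GRCm38.p6), and a further motif search is not reported here. Figures were drawn with matplotlib 3.10.9.

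Alternatives were leaving out dim genes, quantile normalization again, centring on brighter genes, eBayes with trend and robust settings, array weights, the mean of a gene's probe sets, a receptor covariate and leaving out each mouse.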

Additional observations from a re-analysis of the deposited data

How the results depend on the processing

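Over the 38 genes and 13 other settings together, 474 of 491 differences kept their direction. Part of this was fixed in advance. Leaving out dim genes, the trend and robust settings and the mean of probe sets cannot change a difference of these genes. No gene of the list passed the adjustment over all genes in any setting (smallest limma adjusted p 0.173, with array weights). With array weights, 2569 of all genes and 19 of the 38 had an unadjusted limma p under 0.05, against 469 and 8 in the analysis reported. With the receptor covariate these counts were 1038 and 16, and 1 gene of all, not among the 38, passed the adjustment. Leaving out 1 mouse at a time gave 327 to 1200 genes at that p over all genes and 2 to 17 among the 38. In these settings 0 to 1 genes of all passed the adjustment. Of the 38, 31 to 38 were higher in SG-/- tumours, and the median difference ran from 0.13 to 0.49. Between 12 and 25 of the 38 did not overlap between genotypes, in either direction. The 25 came without SG-/- replicate 3, and 24 of them were higher in SG-/- tumours. The share of all genes higher without overlap was then 12.5%, against 2.84% over all tumours. For the other mice left out that share was not taken. Fewer tumours overlap less easily, so the rise in this count is not read as a stronger difference.

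Differences that changed sign did so in 9 genes, and the cause was not tested. With array weights Cx3cr1 differed by -0.0052, Marco by -0.1779 and Timd4 by -0.0415. The other changes of sign came from leaving out 1 mouse at a time, over which the difference ran from -0.7282 to 0.0452 for Arg1, from -0.1311 to 0.2763 for Cd14, from -0.4836 to 0.1398 for Chil3 and from -0.0336 to 0.5804 for Fcer1g. It ran from -0.0945 to 0.3042 for Lgmn, from -0.2096 to 0.1172 for Marco, from -0.0329 to 0.2136 for Timd4 and from -0.2426 to 0.3093 for Trem2.

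No paired analysis was possible because the labels give no number that mice of both genotypes share. Leaving out dim genes removes Marco, Timd4 and Vsig4. The mean of all probe sets changes no value of the 38 genes, which have 1 probe set each. Signal near the array floor limits Marco, Timd4, Vsig4 and the lists in which most genes are dim.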
